A study of Mus musculus with 22 samples.

Results

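Rag1, Rag2 and Dntt encode the enzymes that cut and diversify antigen receptor genes, and their RNA was followed here through the loss of the transcription factor E2A (gene Tcf3) in mouse thymocytes. The 3 genes were picked by symbol as the core recombinase genes, out of 43430 genes listed in each of 3 expression tables. All 22 libraries came from RNA of thymocytes sorted as CD4+CD8+ (double-positive) and CD45.1+, from mice with floxed E2a alleles, and they fall into 7 groups. At 4 weeks of age there were 3 libraries of VavCre E2aF/F mice with 3 E2aF/F controls, and 3 libraries of LckCre E2aF/F mice with 3 E2aF/F controls. At 8 weeks there were 4 libraries of VavCre E2aF/F mice that had been sublethally irradiated and given wild-type bone marrow, taken 4 weeks after that transplantation, 3 of untransplanted VavCre E2aF/F mice, and 3 E2aF/F controls with no Cre named. The labels do not state which cells of the transplanted mice carry CD45.1. Vav-driven Cre acts across the blood lineages, and Lck-driven Cre acts in developing T cells. Separate animals are not named in the labels, which say replicate only, so every p-value here sets a difference against the variation among libraries, and part of that may be technical.

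RAG1 and RAG2 form the recombinase that cuts DNA beside the V, D and J segments of T cell receptor and immunoglobulin genes. RAG1 carries the catalytic site, RAG2 is the accessory subunit that reads a histone mark of active chromatin, and terminal deoxynucleotidyl transferase (TdT, from Dntt) adds bases without a template to the cut ends before the end-joining proteins seal them. Double-positive thymocytes use the recombinase to rearrange the T cell receptor alpha locus and shut it off after positive selection. E2A and its relatives HEB and E2-2 (genes Tcf12 and Tcf4) bind the E-box, and E2A is known as an activator of the Rag genes in lymphocytes.

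The promoters are shown because E-boxes are the letters that E proteins read. In mm10, Rag1 (ENSMUSG00000061311) occupies chr2:101638282-101649501 on the minus strand, Rag2 (ENSMUSG00000032864) occupies chr2:101624718-101632529 on the plus strand, and Dntt (ENSMUSG00000025014) occupies chr19:41029275-41059525 on the plus strand. Rag1 and Rag2 lie tail to tail with 5752 bases between them. The sequences below are the 250 bases before each RefSeq transcript start (GRCm38.p6), 5′ to 3′ on the gene's own strand, with every CANNTG in capitals. The windows are chr2:101649533-101649782 for Rag1, chr2:101624462-101624711 for Rag2 and chr19:41029025-41029274 for Dntt.
Rag1 promoter: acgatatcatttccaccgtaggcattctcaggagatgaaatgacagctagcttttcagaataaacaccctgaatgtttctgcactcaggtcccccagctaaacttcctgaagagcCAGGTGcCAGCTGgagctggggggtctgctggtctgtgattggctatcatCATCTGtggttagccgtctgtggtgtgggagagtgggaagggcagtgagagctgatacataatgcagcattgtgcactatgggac
Rag2 promoter: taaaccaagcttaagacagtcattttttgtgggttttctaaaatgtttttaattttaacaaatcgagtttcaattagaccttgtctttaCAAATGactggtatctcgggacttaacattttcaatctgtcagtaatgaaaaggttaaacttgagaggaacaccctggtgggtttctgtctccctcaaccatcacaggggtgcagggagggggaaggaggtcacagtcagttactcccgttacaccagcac
Dntt promoter: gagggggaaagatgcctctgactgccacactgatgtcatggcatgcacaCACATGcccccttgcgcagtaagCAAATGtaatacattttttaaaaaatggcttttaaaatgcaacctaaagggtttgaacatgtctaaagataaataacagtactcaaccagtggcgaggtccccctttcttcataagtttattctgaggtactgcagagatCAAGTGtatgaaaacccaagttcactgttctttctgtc
The Rag1 window held 3 CANNTG matches, of which CAGGTG lies 135 to 130 bases and CAGCTG 128 to 123 bases before the start, next to each other with 1 base between. The Rag2 window held 1 match, CAAATG, and the Dntt window held 3, of which the nearest, CAAGTG, lies 38 to 33 bases before the start. CANNTG reads the same on both strands. At least 1 match was in 66.2% of 32851 RefSeq promoter windows of this length and 3 or more were in 12.2%. CAGCTG was in 13.0% of the windows and CAGGTG, on either strand, in 17.2%. These are matches of letters only, and binding was not measured. The distal elements that control the Rag locus were not analysed here.

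The deletion was visible in every comparison. Tcf3 averaged 1.30 ± 0.127 FPKM (a depth-scaled level per gene length) in Vav knockout and 6.86 ± 0.555 FPKM in control libraries at 4 weeks (SD, n = 3 each). It averaged 1.24 ± 0.0749 FPKM in Lck knockout and 7.57 ± 0.624 FPKM in their controls (SD, n = 3 each). At 8 weeks it averaged 1.51 ± 0.538 FPKM in transplanted (SD, n = 4), 1.79 ± 0.492 FPKM in untransplanted knockout and 7.53 ± 0.0496 FPKM in control libraries (SD, n = 3 each), with no overlap between knockouts and controls in any table. Depth estimated from the lowest values was 5.5 to 37.4 M reads a library (M for mega). It was 31.1 to 37.4 M in the 4-week Vav table and 5.5 to 16.3 M in the Lck table. Transplanted replicate 3 stood apart: 57.5% of its near-whole low values were even multiples of 1 read, against 38.3% to 42.2% in the other libraries, and its Tcf3 was the highest of its group at 2.32 FPKM. Results for the transplanted group are therefore given with and without it. All groups carried the markers of the double-positive stage, each of the 17 genes listed for it averaging at least 1 FPKM in every group, and Pax5, Ebf1, Ms4a1 and Igll1, 4 of 8 listed B cell genes, averaged below 0.1 FPKM in every group. Cd79b, a B cell receptor subunit and the only gene of that list to be tested, fell in Vav knockouts, by 2.37 on the log2 scale at 4 weeks, 2.71 at 8 weeks and 2.28 in transplanted mice, with 0.371, 0.0358 and 0.449 FPKM in these groups against 6.06 FPKM in 4-week and 5.79 FPKM in 8-week controls. It passed the 1 FPKM filter of the tests in the Vav tables through the control libraries, so these tests are no support for a loss. Cd79a and Vpreb1 averaged between 0.133 and 0.879 FPKM over the groups. The part of B lineage RNA in the recombinase values was not tested.

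**Figure D1:**
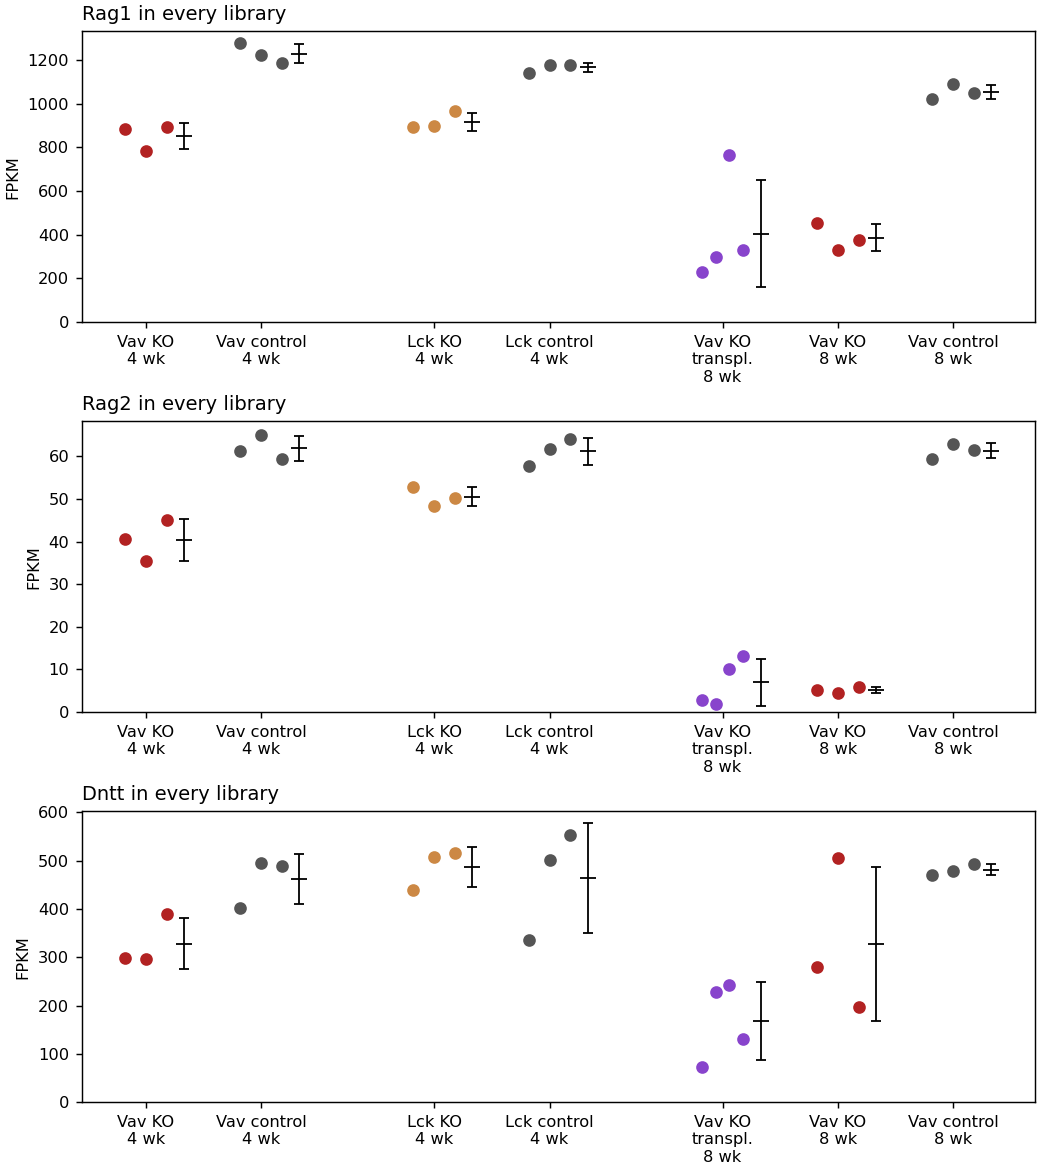
Level of Rag1, Rag2 and Dntt in FPKM in each library (dots), with the group mean ± SD beside them, for the 7 groups. Rag1 and Rag2 of the 8-week Vav knockouts sit below all controls of their table, while the 3 Dntt dots of untransplanted knockouts, at 279, 506 and 198 FPKM, spread across the control level.

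In the controls, the recombinase genes differed widely in level. Rag1 was among the 10 most abundant RNAs of every control library, at ranks 5 to 9 of all genes, and averaged 1230 ± 44.5 FPKM in the Vav controls at 4 weeks, 1166 ± 21.2 FPKM in the Lck controls and 1053 ± 33.2 FPKM in the controls at 8 weeks (SD, n = 3 each). Rag2, its partner subunit, averaged 61.9 ± 2.91, 61.2 ± 3.22 and 61.3 ± 1.78 FPKM in the same control groups (SD, n = 3 each), at ranks 491 to 570. Dntt averaged 462 ± 51.7, 464 ± 113 and 481 ± 11.7 FPKM in those groups (SD, n = 3 each). The control means of Rag2 in the 3 tables lay closer together than the SD within each group. All 3 genes passed the filter on low values in every table, and levels of different tables stand side by side as a description only.

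At 4 weeks, Rag1 and Rag2 fell in Vav knockout thymocytes to 69.4% and 65.2% of their control means. Rag1 was at 884, 784 and 892 FPKM in the knockout libraries and at 1276, 1225 and 1188 FPKM in the controls. Every knockout value was below every control value. On the log2(FPKM + 1) scale used for all tests, the change was -0.53 (SE 0.0978) with an adjusted p of 0.0175 (limma, Benjamini-Hochberg over all genes). Rag2 levels were 40.7, 35.4 and 45.0 FPKM in knockout and 61.2, 65.0 and 59.3 FPKM in control libraries. The groups did not overlap, and the change was -0.61 (SE 0.0939, adjusted p 0.0101). Dntt levels were 299, 296 and 390 FPKM in knockout and 403, 495 and 489 FPKM in control libraries. The groups did not overlap here either, but the change of -0.50 (SE 0.141, 95% interval -0.89 to -0.11) did not pass the test, with an adjusted p of 0.0641. The share of all genes whose groups do not overlap was not counted in any comparison. A lack of overlap is therefore a description of the values and no support for a change. So 2 of the 3 genes passed in the lower direction, in a comparison in which 6.08% of 10828 genes tested were called lower and 7.63% higher. The Rag1 call rested on single libraries, its adjusted p lying between 0.0181 and 0.0916 as each library was left out, and above 0.05 without control 1, 2 or 3 or knockout 3. The Rag2 call was lost only without control 2 (adjusted p 0.0522). In bulk RNA, fewer cells of a kind and less RNA per cell cannot be told apart.

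In the Lck knockouts at 4 weeks none of the 3 genes passed the test, in a comparison with 0.804% of 10946 genes called lower and 0.201% higher. Rag1 was at 892, 897 and 965 FPKM in Lck knockout libraries and at 1142, 1178 and 1179 FPKM in their controls. The groups did not overlap and the mean was 78.7% of the control mean, with a log2 difference of -0.35 (SE 0.0538, 95% interval -0.48 to -0.22, adjusted p 0.0536). Rag2 levels were 52.8, 48.4 and 50.2 FPKM in knockout and 57.7, 61.6 and 64.1 FPKM in control libraries. Again the groups did not overlap, and the difference was -0.27 (SE 0.0557, adjusted p 0.103). Dntt gave 439, 507 and 515 FPKM in Lck knockout and 337, 501 and 554 FPKM in control libraries, which overlapped, with a difference of 0.10 (SE 0.189, 95% interval -0.36 to 0.55, adjusted p 0.882). The Rag1 value lay close to the threshold, and its side depended on the setting: it was called with a pseudocount of 0.1 (adjusted p 0.0424) and with robust moderation (adjusted p 0.0353), and over all the alternatives its adjusted p ran from 0.0353 to 0.493.

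Whether the Vav and Lck deletions differed was tested as an interaction over the 12 libraries at 4 weeks, in which 1.65% of 10541 genes were called in each direction. None of the 3 genes was called. The Vav change minus the Lck change was -0.18 (SE 0.107, adjusted p 0.445) for Rag1, -0.34 (SE 0.114, adjusted p 0.145) for Rag2 and -0.60 (SE 0.254, adjusted p 0.263) for Dntt. A p above the threshold does not show that the deletions act alike, and the Lck libraries were shallower than the Vav ones. Tcf3 itself differed by 0.16 between the deletions (adjusted p 0.513).

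At 8 weeks the Vav knockouts had lost most of the Rag2 RNA. Rag2 was at 5.31, 4.53 and 5.93 FPKM in the knockout libraries and at 59.4, 63.0 and 61.5 FPKM in the controls. The groups were far apart and each was tight, and the knockout mean was 8.57% of the control mean. The change was -3.32 (SE 0.537, adjusted p 0.00734), and in rank Rag2 stood at 5618 to 6637 among all genes in the knockouts, against 491 to 570 in all controls of the 3 tables. Rag1 read 453, 330 and 377 FPKM in knockout and 1022, 1088 and 1048 FPKM in control libraries. It fell to 36.7% of the control mean with no overlap, a change of -1.46 (SE 0.386, adjusted p 0.0475), and still ranked 50 to 68 among all genes. Dntt values were 279, 506 and 198 FPKM in knockout and 471, 479 and 494 FPKM in control libraries. The knockouts straddled the controls, with 2 of 3 below the lowest control, and the difference was -0.66 (SE 0.468, 95% interval -1.72 to 0.39, adjusted p 0.368). Thus 2 of 3 genes were called lower, where 4.45% of 11632 genes tested were called lower and 4.65% higher.

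The errors at 8 weeks come from a fit that shares 1 spread with the transplanted libraries, which vary more. With the Vav knockouts and controls alone, Rag1 had the same change of -1.46 with an SE of 0.124 and an adjusted p of 0.000391, and Rag2 an SE of 0.0921 and an adjusted p of 1.27e-05. In the shared fit the Rag1 call was lost when any library of the 2 groups was left out (adjusted p 0.104 to 0.157), and the Rag2 call when control 2 was (adjusted p 0.0526).

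**Figure D2:**
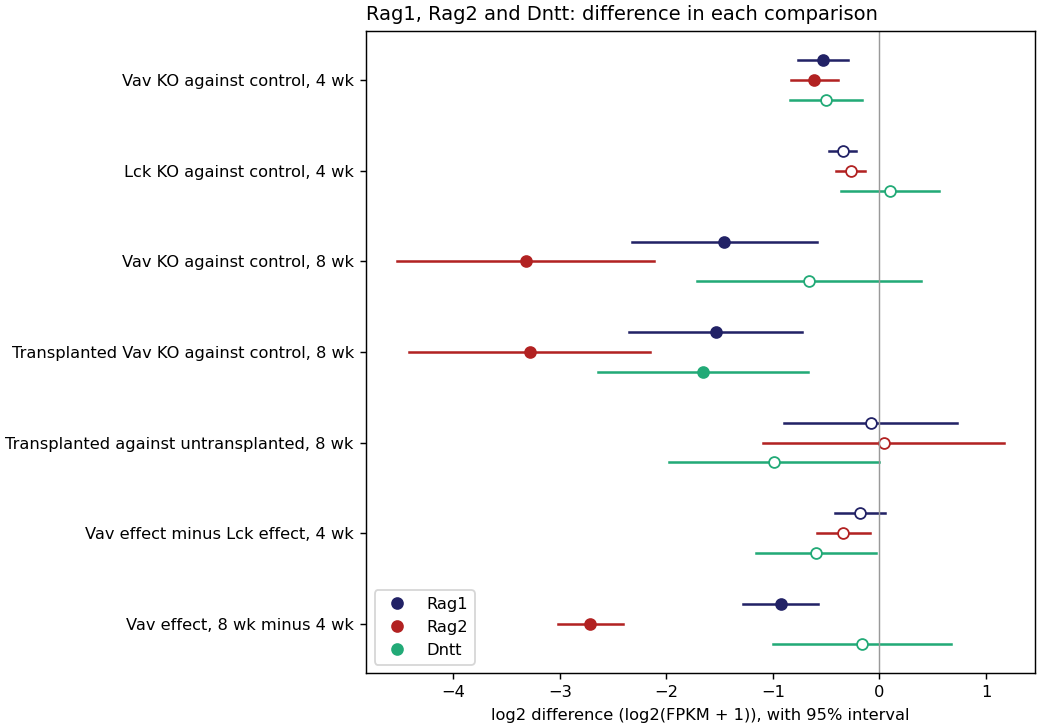
Log2 change of Rag1, Rag2 and Dntt in each comparison, with lines for the 95% interval, filled where the adjusted p was under 0.05. Rag2 stands at -3.32 and -3.28 against the 8-week controls and at -0.61 against the 4-week controls.

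The change of both Rag genes was larger at 8 than at 4 weeks, and this difference was tested over the 12 untransplanted Vav libraries. The 8-week change minus the 4-week change was -2.71 for Rag2 (SE 0.136, adjusted p 5.72e-06), which placed Rag2 at rank 2 of 10489 genes by p. For Rag1 it was -0.93 (SE 0.158, adjusted p 0.0047). For Dntt it was -0.16 (SE 0.379, 95% interval -1.003 to 0.68, adjusted p 0.800). In this comparison 9.37% of the genes were called lower and 8.87% higher. Both Rag calls held in every alternative and with each of the 12 libraries left out, from -1.05 to -0.82 for Rag1 and from -2.80 to -2.63 for Rag2. Age and table coincide, so an age effect on the deletion and a difference between the tables that acts on knockouts alone cannot be told apart. Tcf3 differed by 0.14 (adjusted p 0.586).

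In the transplanted Vav knockouts all 3 genes were called lower than in the same controls, where 4.6% of 11632 genes were called lower and 4.59% higher. Rag2 was at 2.80, 1.84, 10.01 and 13.2 FPKM in transplanted libraries, against the control values given above. All 4 were below every control, and the mean was 11.4% of the control mean, a change of -3.28 (SE 0.502, adjusted p 0.0049). In rank it stood at 3067 to 9654 among all genes. Rag1 was at 228, 297, 767 and 330 FPKM in the transplanted libraries, where replicate 3 was higher than the other 3 yet below every control. Its mean was 38.5% of the control mean and its change -1.54 (SE 0.361, adjusted p 0.0308). Dntt was at 73.1, 229, 242 and 131 FPKM, all 4 below every control, with a mean of 35.1% of the control mean and a change of -1.66 (SE 0.438, adjusted p 0.0468). Without transplanted replicate 3 the changes were -3.54 for Rag2 (adjusted p 0.00179), -1.90 for Rag1 (adjusted p 0.000309) and -1.88 for Dntt (adjusted p 0.013). Leaving out any other library of the transplanted or control group ended the Rag1 call, with adjusted p up to 0.128, and the Dntt call was kept only without transplanted replicate 2 or 3, with adjusted p up to 0.16 otherwise. The Rag2 call was kept throughout.

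Set against the untransplanted knockouts, the transplanted libraries gave no call for any of the 11632 genes (0% in each direction, with 681 genes at an unadjusted p under 0.05). The difference was -0.08 for Rag1 (SE 0.361, 95% interval -0.90 to 0.73, adjusted p 0.972) and 0.04 for Rag2 (SE 0.502, 95% interval -1.09 to 1.17, adjusted p 0.988). For Dntt it was -0.99 (SE 0.438, adjusted p 0.841), with transplanted replicates at 73.1 to 242 FPKM and untransplanted ones at 198 to 506 FPKM, which overlap. Without transplanted replicate 3 these differences were -0.44, -0.22 and -1.22, and none was called. Summed FPKM of 4 erythroid genes, a sign of red cell RNA, was 26.9 to 72.6 in transplanted, 3.44 to 16.7 in untransplanted knockout and 13.9 to 30.7 in control libraries. For 7 macrophage and granulocyte genes the sum was 2.12 to 21.8 in transplanted, 2.55 to 8.90 in untransplanted knockout and 0.782 to 3.49 in control libraries, with Adgre1, Csf1r and Ly6g averaging below 0.1 FPKM in all 3 groups. Their part in the values of the recombinase genes was not tested.

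Ratios between members were taken within a library, where depth cancels. At 4 weeks there were 4.60, 4.51 and 5.05 FPKM of Rag2 per 100 FPKM of Rag1 in Vav knockouts and 4.797, 5.31 and 4.99 in their controls, which overlap. The Lck libraries also overlapped, at 5.93, 5.40 and 5.20 in knockouts and 5.06, 5.23 and 5.44 in controls. At 8 weeks the ratio was 1.23, 0.617, 1.31 and 4.00 in transplanted, 1.17, 1.37 and 1.57 in untransplanted knockout and 5.81, 5.79 and 5.87 in control libraries. All 7 knockout libraries were below every control, and transplanted replicate 4 was the closest to them. Dntt per 100 FPKM of Rag1 overlapped at 4 weeks between Vav knockouts (33.8, 37.8 and 43.7) and controls (31.6, 40.5 and 41.2). In the Lck table it was 49.2, 56.5 and 53.4 in knockouts and 29.5, 42.5 and 47.0 in controls, with every knockout above every control. At 8 weeks it was 32.0, 76.9, 31.6 and 39.8 in transplanted, 61.6, 153 and 52.5 in untransplanted knockout and 46.0, 44.0 and 47.1 in control libraries. Untransplanted knockouts thus lay above the controls in Dntt relative to Rag1, while the transplanted libraries lay on both sides of them. These ratios were not tested.

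**Figure D3:**
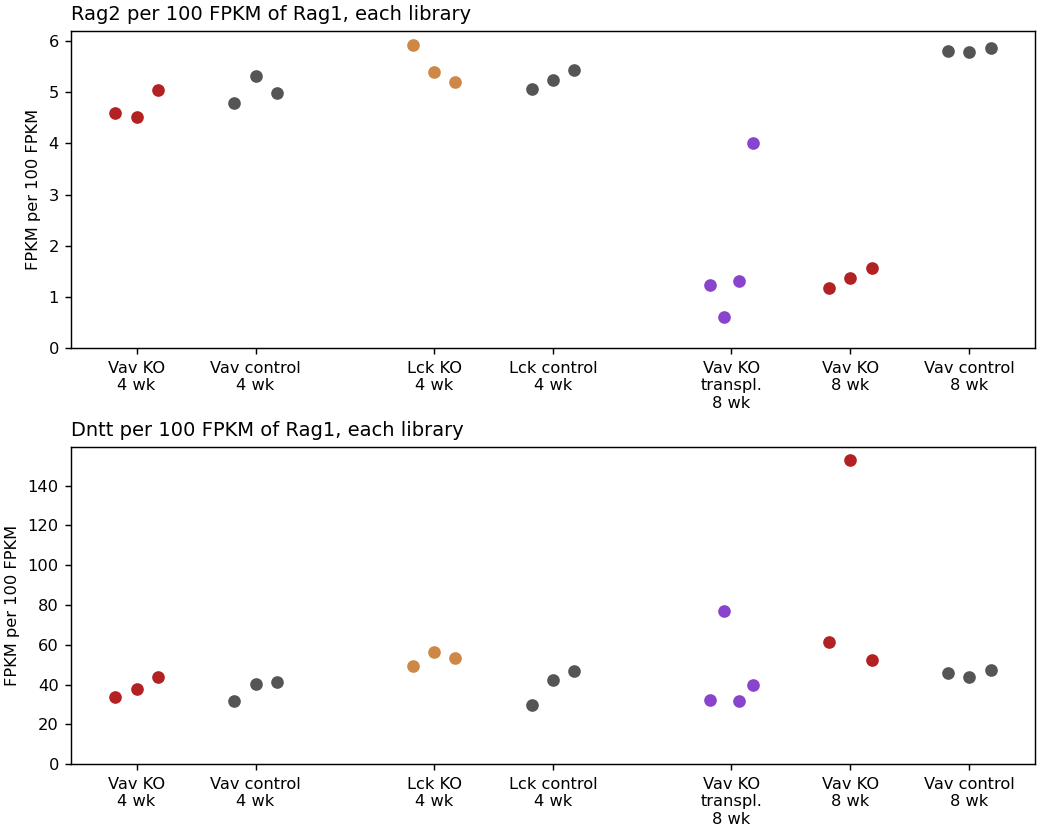
FPKM of Rag2 and of Dntt per 100 FPKM of Rag1 in each library (dots), by group, the axis being a ratio of levels. For Rag2 the 8-week controls cluster at 5.79 to 5.87 and the untransplanted knockouts at 1.17 to 1.57, while the 4-week groups overlap.

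The reads behind the low Rag2 values could only be estimated. By the depth estimate and the GENCODE exon length, Rag2 had about 123 reads or more in each library, but reads themselves were not recovered. The gene B230118H07Rik (listed as Iftap) overlaps both Rag genes: it shares 80 exon bases with Rag1 on the same strand, 1.21% of the Rag1 exons, and 208 with Rag2 on the opposite strand, 6.07% of the Rag2 exons. The sources used here do not give the strand setting of the counting, so reads of these stretches cannot be told apart, and no annotated gene overlaps Dntt. Levels of B230118H07Rik were low, with a log2 difference of -0.35 at 4 weeks (adjusted p 0.145) and -0.44 at 8 weeks (adjusted p 0.299) in Vav knockouts.

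The neighbours of the Rag locus and of Dntt that reached the filter did not pass the test in any comparison. At the Rag locus, 8-week Vav knockout values were -0.19 for Traf6 (adjusted p 0.221), 0.35 for Commd9 and -0.04 for Trim44. Beside Dntt they were -0.34 for Tm9sf3 (adjusted p 0.107), -0.41 for Lcor and 0.0044 for Zfp518a. In untransplanted Vav knockouts at 8 weeks each of these tested values was smaller in size than that of the member it lies beside. Ldlrad3, at the Rag locus, was tested in the Lck table only, at -0.19 (adjusted p 0.418). Its Vav levels were low and untested. At 4 weeks they were 0.329 to 0.410 FPKM in knockout and 0.970 to 1.19 FPKM in control libraries, without overlap. At 8 weeks they were 0.0914 to 0.852 FPKM in untransplanted knockout and 0.635 to 0.940 FPKM in control libraries, which overlap.

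The proteins that seal the cut ends were followed in a list of 23 end-joining genes. At 4 weeks 2 of 23 rose and 0 fell in Vav knockouts, with a list median of -0.03 against -0.01 over all genes tested. That count lies close to the background of 7.63% called higher. These were Poll, a polymerase that fills gaps in end joining and shares its family with TdT, at 0.88 (adjusted p 0.00421), and Xrcc6, the Ku70 end-binding subunit, at 0.71 (adjusted p 0.00683). Poll passed the filter on low values in the Vav tables only through knockout libraries, with no control above 0.479 FPKM. Its calls, which the list counts include, are therefore no support for a rise. In Lck knockouts none of 22 tested passed, where 0.201% of all genes were called higher and 0.804% lower. At 8 weeks 3 of 23 rose, Poll at 1.86 (adjusted p 0.00759), Xrcc6 at 1.42 (adjusted p 0.0266) and the damage kinase Atm at 0.64 (adjusted p 0.0283). Of all genes, 4.65% were called higher and 4.45% lower there. With the Vav knockouts and controls alone 8 rose and 6 fell, in a fit that called 22.9% of 10958 genes higher and 22.8% lower. In transplanted knockouts Poll rose by 1.68 and the end-joining factor Nhej1 fell by 0.70, where 4.59% of all genes were called higher and 4.6% lower. Xrcc6 ranged from 37.7 to 110 FPKM in them. Without transplanted replicate 3, 7 rose and 5 fell, where 18.3% of 11472 genes were called higher and 14.9% lower. Poll stayed a low RNA at 3.65 ± 0.579 FPKM in Vav knockout and 0.281 ± 0.178 FPKM in control libraries at 8 weeks (SD, n = 3 each). Xrcc6 lies on chromosome 15, which held 27.9% of the autosomal genes called higher at 8 weeks, against 4.13% of the genes tested, and the part of this in the Xrcc6 value was not tested. Between 8 and 4 weeks the change differed for 8 of 23, where 8.87% of all genes were called higher and 9.37% lower. Of these, 6 were more positive, led by Poll at 0.98 and Xrcc6 at 0.71. The other 2 were more negative, the larger being Dclre1c (Artemis, the nuclease that opens the hairpins made by the recombinase) at -0.60. At 8 weeks the log2 changes of the list in untransplanted Vav knockouts lay between -0.82 and 1.86.

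**Figure D4:**
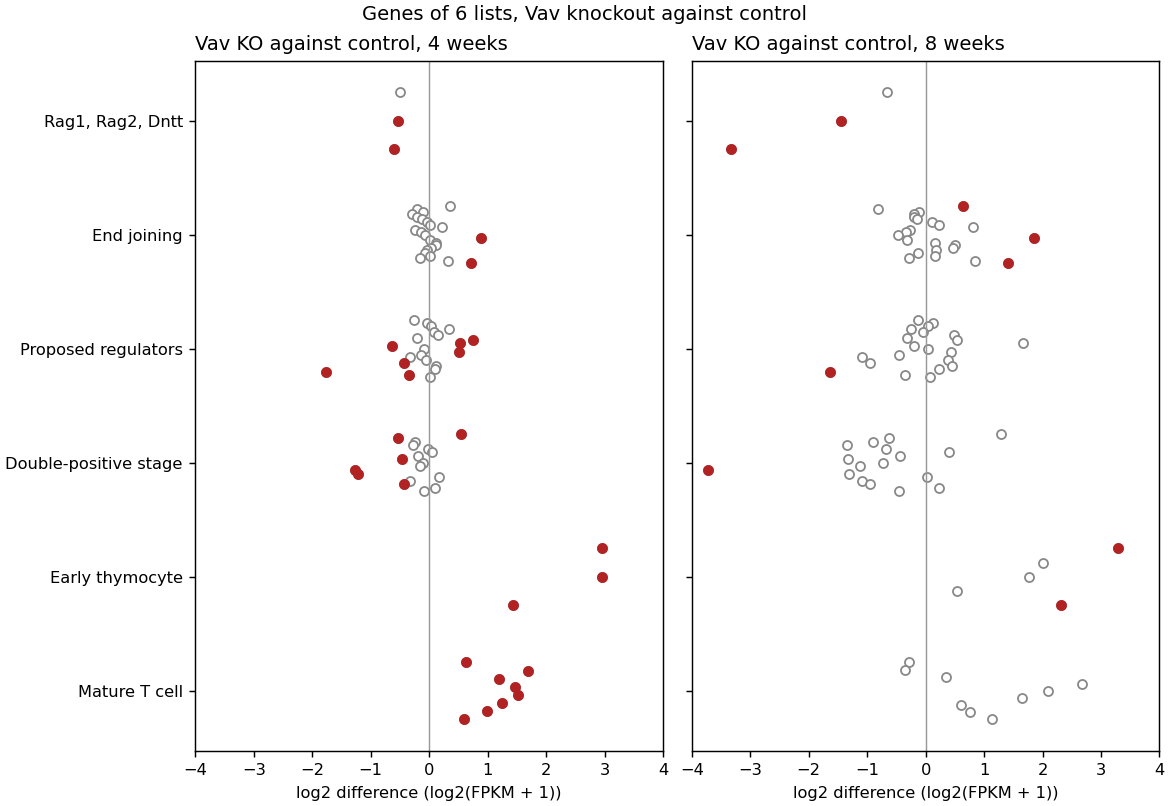
Log2 difference of each tested gene of 6 lists, with Rag1, Rag2 and Dntt on top, in Vav knockouts against controls at 4 weeks (left) and 8 weeks (right), filled where the adjusted p was under 0.05. At 8 weeks Rag2 at -3.32 and Plxnd1 at -3.72 lie lowest.

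Among 22 proposed regulators of the Rag genes, 21 were tested in the Vav tables. At 4 weeks 3 rose and 4 fell, where 7.63% of all genes were called higher and 6.08% lower. Tcf3, the deleted gene, whose fall is fixed by the design, fell by 1.77. Id1 and Id2, inhibitors of E proteins, rose by 0.74 and 0.54, Id3 fell by 0.63, and the other 3 changed by smaller amounts. Id1 passed the filter on low values only through the knockouts, with no control above 0.790 FPKM, so its call is no support for a rise. In Lck knockouts Tcf3 fell by 1.93 and Id3 by 0.63, and the other 18 of 20 did not pass. Of all genes, 0.804% were called lower and 0.201% higher there. At 8 weeks 1 of 21, the deleted gene Tcf3 itself, passed in untransplanted and in transplanted knockouts. Of all genes, 4.45% and 4.6% were called lower in these 2 comparisons. With the Vav knockouts and controls alone 3 of 20 rose and 5 fell, near that fit's shares of 22.9% and 22.8% of all genes. Without transplanted replicate 3, 2 of 21 were higher and 4 lower in the transplanted group, against 18.3% and 14.9% of all genes. The 8-week change minus the 4-week change was called for 3 of 20, all negative, where 9.37% of all genes were called lower and 8.87% higher. Among them were Satb1, an organizer of thymocyte chromatin, at -0.52 and the transcription factor gene Myb at -0.31.

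The number of genes listed for the double-positive stage that passed the test depended on the comparison and the fit. At 4 weeks 5 of 17 fell in Vav knockouts, 1 rose and 11 did not pass, where 6.08% of all genes were called lower, with Plxnd1, a semaphorin receptor of cortical thymocytes, at -1.26 and Ptcra, which encodes the partner of the first rearranged beta chain, at -1.21. In Lck knockouts 2 of 17 passed, Ptcra, which fell by 0.78, and Plxnd1, which fell by 0.57, where 0.804% of all genes were called lower. At 8 weeks the list median was -0.73 in Vav knockouts against -0.0049 over all genes. In the shared fit 1 of 17 was called, Plxnd1 at -3.72 (adjusted p 0.00334), where 4.45% of all genes were called lower. With the Vav knockouts and controls alone 12 were called lower and 2 higher, in a fit with 22.8% of all genes called lower. In transplanted knockouts 1 of 17 fell, Plxnd1 at -2.98, where 4.6% of all genes were called lower. Without replicate 3, 10 fell, where 14.9% of all genes were called lower. Compared with 4 weeks, the 8-week change was more negative for 8 of 17 and more positive for 1, against 9.37% and 8.87% of all genes, led by Plxnd1 (-2.46), Ccr9 (-1.06), Cd8b1 (-0.96) and Cd4 (-0.85). The summed level of the 17 genes was 1449 to 2959 FPKM in transplanted, 2023 to 2206 FPKM in untransplanted knockout and 3697 to 4031 FPKM in control libraries.

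Early-stage and mature T cell markers are given as levels, since 3 of 9 and 4 of 9 of them averaged 1 FPKM or more in the Vav controls at 4 weeks, and the filter therefore bears on which were tested. The summed level of 9 early-stage genes at 4 weeks was 66.2 to 108 FPKM in Vav knockout and 19.5 to 20.5 FPKM in their control libraries, and 17.1 to 20.6 FPKM in Lck knockout and 14.2 to 17.2 FPKM in their control libraries. At 8 weeks it was 71.4 to 247 FPKM in transplanted, 71.2 to 121 FPKM in untransplanted knockout and 13.0 to 15.6 FPKM in control libraries, with Flt3 and Spi1 averaging below 0.1 FPKM in each of these groups. The largest part of the 4-week Vav sum was Notch1, which averaged 45.4 FPKM in knockout and 15.9 FPKM in control libraries. Dtx1 averaged 18.2 and 1.38 FPKM in the same groups. The sum therefore need not follow the number of early-stage cells. Il2ra, a receptor chain of double-negative thymocytes, averaged 23.1 ± 8.86 FPKM in Vav knockout and 1.96 ± 0.154 FPKM in control libraries at 4 weeks, while Kit, the stem cell factor receptor, averaged 0.0327 ± 0.0131 FPKM in the knockouts and 0.184 ± 0.0488 FPKM in the controls (SD, n = 3 each). At 8 weeks Kit averaged 0.63 FPKM in untransplanted knockout, 3.67 FPKM in transplanted and 0.0804 FPKM in control libraries. Il2ra averaged 12.56, 55.04 and 2.17 FPKM in the same order, and Hes1 3.2, 3.94 and 0.0066 FPKM. Cd44 went the other way, at 0.114, 0.0726 and 0.2155 FPKM. Transplanted libraries ran from 0 to 12.06 FPKM for Kit and from 1.02 to 117.8 FPKM for Il2ra, on both sides of the controls. For 9 mature T cell genes the sum at 4 weeks was 55.8 to 57.3 FPKM in Vav knockout and 24.1 to 25.7 FPKM in control libraries, and it overlapped in the Lck table, at 37.0 to 41.2 FPKM in knockouts and 33.3 to 38.7 FPKM in controls. At 8 weeks that sum was 56.8 to 199.8 FPKM in transplanted, 55.9 to 83.6 FPKM in untransplanted knockout and 35.2 to 38.3 FPKM in control libraries. The part of such cells in the Rag values was not tested.

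Genes whose pattern was most like each member were named by Pearson r over all 22 libraries, after the control mean of the same table was subtracted, among 5385 genes of at least 5 FPKM in the controls. For Rag1 these were Mad1l1 (0.989), Clk3 (0.983), Cd4 (0.98), Sft2d2 (0.979) and Inpp5k (0.978). For Rag2 they were Fam78a (0.974), Ldhb (0.974), Lipa (0.972), Pip4k2a (0.969) and Actr1a (0.969). For Dntt they were Bbs4 (0.917), Ramp1 (0.917), Rtf2 (0.909), Otud1 (0.904) and Bex2 (0.892). Rag2 stood at rank 131 in the list of Rag1 (r 0.931), and Rag1 and Rag2 at ranks 186 and 442 in that of Dntt (r 0.787 and 0.722). The points share their groups and libraries, so these values only describe the pattern.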

How the data were processed

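The authors deposited FPKM values per gene as 3 tables, for the 4-week Vav groups, the 4-week Lck groups and all 8-week groups. Trimmomatic 0.33, STAR, HTSeq 0.6.1, DESeq2 and the build mm10 are named without roles, per the submitters' processing notes. The gene lengths and annotation behind the FPKM are not given in the sources used here. Symbols and positions came from the GENCODE annotation of that build, which matched 42546 of 43430 identifiers. Whole multiples of 1 read (tolerance 0.03) made up 50.3% to 59.0% of low values, so reads were not recovered and no count model was used.

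Values were tested as log2(FPKM + 1), which understates changes of low genes, with limma 3.58.1 (trend) in R 4.3.3, keeping genes that reached 1 FPKM in 3 libraries per table. An adjusted p (Benjamini-Hochberg, all genes tested) under 0.05 was called. The 8-week comparisons shared 1 fit of 10 libraries and the same controls. Differences of effects were interactions over 12 libraries, in which an offset between tables cancels. The fits were tested on simulated data. Alternatives were other pseudocounts, filters, scalings and fits, a replicate block and leaving out each library. The members and lists were chosen with earlier results of these data known. Named genes were the members, Tcf3, up to 4 called genes per list with the largest change, all tested neighbours, and the 5 genes most like each member. A few genes that the rule would name are not reported here.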

Additional observations from a re-analysis of the deposited data

Results flagged for a closer look

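Tcf3 was uneven among the transplanted Vav knockouts. Replicate 3 stood at 2.32 FPKM and the other 3 at 1.22, 1.31 and 1.21 FPKM, so that its gap to the nearest was 0.909 of the group's range, above the limit for 4 samples. Chance alone passes that limit in about 1 of 20 groups. The same library had the highest Rag1 of its group at 767 FPKM, and its part in the group's values is given by the fits without it.

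The Vav change differed between 8 and 4 weeks by an interaction test for both Rag genes. The difference was -2.71 for Rag2 and -0.93 for Rag1.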

How the results depend on the processing

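Of 345 values of the 3 genes under alternatives, 304 kept their side of the threshold and 36 lost the call. A further 5 gained a call, and 0 reversed sign with a call. The 304 include uncalled values whose sign changed, such as Dntt in Lck knockouts, at 0.098 and down to -0.117 with a library left out. With no filter on low values, calls were lost for Rag1 in Vav knockouts at 4 weeks (-0.53, adjusted p 0.27) and 8 weeks (-1.46, 0.133) and in transplanted knockouts (-1.54, 0.0938), and for Dntt in the transplanted ones (-1.66, 0.0974). Scaling to the same FPKM sum, which moved the median of all genes by -0.124 at 8 weeks, ended the calls of Rag1 in Vav knockouts (-1.60, adjusted p 0.0513) and Dntt in transplanted ones (-1.77, 0.0501), and called Dntt at 4 weeks (-0.56, 0.044), as did quantile scaling (-0.54, 0.0344). Median-of-ratios scaling ended the Rag1 call at 8 weeks (-1.46, 0.0501). A fit of transplanted and control libraries alone ended the calls of Rag1 (-1.54, 0.0834) and Dntt (-1.66, 0.072). In Lck knockouts Rag1 was called with a pseudocount of 0.1 (-0.35, 0.0424) and robust moderation (-0.35, 0.0353).

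Replicate numbers are shared across groups, but 2 of 15 same-numbered pairs correlated above 0.1 (-0.109 to 0.181) and 7 of 21 libraries were closest to their own number. No pairing was seen, but with so few libraries per group this check cannot exclude that same-numbered libraries share an origin or a preparation. A replicate block, an analysis by this pairing, gave Rag1 -0.53 at 4 weeks (adjusted p 0.0512), -1.46 at 8 weeks (0.0966) and -1.49 in transplanted knockouts (0.102), and Dntt -1.59 in the last (0.111). It changed the genes called higher to 501 from 826 at 4 weeks and to 288 from 541 at 8 weeks.

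Leaving out 1 library each moved the 4-week Vav values between -0.56 and -0.47 for Rag1, -0.69 and -0.52 for Rag2 and -0.63 and -0.43 for Dntt. The 8-week values lay between -1.57 and -1.35 for Rag1, -3.40 and -3.24 for Rag2 and -1.03 and -0.36 for Dntt, which stayed uncalled. The transplanted values lay between -1.90 and -1.32 for Rag1, -3.66 and -2.89 for Rag2 and -1.88 and -1.31 for Dntt. The fit of Vav knockouts and controls alone called 2511 genes higher and 2494 lower at 8 weeks, against 541 and 518 in the shared fit, and without transplanted replicate 3 that group had 2104 higher and 1710 lower, against 534 and 535. The causes were not tested. The libraries are few, and the shallowest held about 5.5 M reads.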
